A study of Mus musculus with 8 samples.

Results

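Genes of the interferon response were followed across hematopoietic stem cells labelled as knockout for Huwe1, which encodes a ubiquitin ligase, and wild type stem cells. The members were 43 genes picked by name as interferon-induced, of 23358 genes in the count table. They comprise 4 regulators, 4 genes of RNA sensing, 3 IFIT genes, 5 genes of the OAS family and PKR, 2 genes of the ISG15 system, 6 large dynamin-like GTPases, 4 immunity-related GTPases, 5 genes of membrane and secreted proteins, 3 genes of the PARP9 complex and 7 other effectors. All 43 had reads in all 8 libraries and all 43 passed the filter on low counts.

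Type I interferon binds a receptor made of IFNAR1 and IFNAR2, and the kinases JAK1 and TYK2 then phosphorylate STAT proteins, STAT2 among them. With IRF9 these form a complex that binds the interferon-stimulated response element in the promoters of antiviral genes, while interferon gamma acts through STAT dimers at a different element. The induced proteins sense, bind or degrade viral RNA, block viral entry, or coat pathogen vacuoles. Interferon is also known to drive dormant hematopoietic stem cells into division, and the Mx1 promoter used in the Mx1-Cre transgene is itself switched on by interferon, usually after injection of a double-stranded RNA mimic.

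Bulk RNA-seq had been carried out on uncultured mouse bone marrow cells, gated Lin-Sca+Kit+CD48-CD150+ by flow sorting. There were 3 libraries of Huwe1 knockout cells with inducible deletion by Mx1-Cre, 2 libraries of Huwe1 knockout cells with constitutive deletion by Vav-Cre, which acts throughout blood formation, and 3 libraries of wild type cells. The labels list no treatment for any group, and give neither the inducing agent and its timing in the Mx1-Cre mice, nor whether wild type mice carried Cre or received that agent, nor strain, age or sex. They do not say that replicates came from separate animals, so the p-values measure the spread between these libraries, which may be technical.

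Total counts ran between 28689765 and 33202926 per library, with 14601 to 15554 genes detected. Huwe1 itself stood at 444, 399 and 412 CPM in the Mx1-Cre libraries, 445 and 490 in the Vav-Cre libraries and 434, 398 and 433 in wild type. Counts per whole gene cannot show the loss of a few exons, so this level does not check the knockout. CPM, the unit of all levels here, are counts scaled to library size with TMM factors. Of 12 stem cell markers, edgeR called 3 lower in Mx1-Cre than in wild type (25%, against 2.10% of all genes), including Fgd5 and Procr. At an unadjusted edgeR p under 0.05, 7 were lower (58.3%, against 10.5%) and 0 higher. In 8 markers (66.7%, against 14.8%) every Mx1-Cre library lay below every wild type library. Log2 fold changes were positive in 3 of the 12. Summed neutrophil markers reached 460, 564 and 104 CPM in the Mx1-Cre libraries, 10.1 and 274 in the Vav-Cre libraries and 312, 519 and 1129 in wild type. Of 10 neutrophil markers tested, 7 had negative log2 fold changes in Mx1-Cre cells (median -0.53) and 9 in Vav-Cre cells (median -2.20). Libraries lay below wild type without overlap in 1 for Mx1-Cre (10%, against 14.8% of all genes) and 5 for Vav-Cre (50%, against 17.1%). Summed monocyte and macrophage markers spanned 317 to 349 CPM in Mx1-Cre, 305 to 357 in Vav-Cre and 329 to 417 in wild type libraries. Of 14 such markers tested, 12 had negative log2 fold changes in Mx1-Cre cells (median -0.71) and 13 in Vav-Cre cells (median -1.85). None was called by edgeR in either line. At an unadjusted edgeR p under 0.05, 1 was lower in Mx1-Cre cells (7.14%, against 10.5% of all genes) and 5 in Vav-Cre cells (35.7%, against 7.64%). Libraries lay below wild type without overlap in 1 for Mx1-Cre (7.14%, against 14.8%) and 7 for Vav-Cre (50%, against 17.1%). Summed stroma and endothelium markers spanned 69.7 to 109 CPM in Mx1-Cre, 106 to 132 in Vav-Cre and 114 to 141 in wild type libraries, and 6 of 9 had negative log2 fold changes in Mx1-Cre cells (median -0.50). Summed plasmacytoid dendritic cell markers spanned 442 to 468, 465 to 575 and 426 to 479 CPM in Mx1-Cre, Vav-Cre and wild type libraries. Siglech, a defining marker of these strong interferon producers, was at 0 in all 5 knockout libraries and at most 0.0985 CPM in wild type. Of 10 plasmacytoid markers tested, 5 had negative log2 fold changes in each line (medians -0.20 in Mx1-Cre and -0.91 in Vav-Cre cells). At an unadjusted edgeR p under 0.05, 1 was lower in Mx1-Cre cells (10%, against 10.5% of all genes). In Vav-Cre cells 3 were lower at that threshold (30%, against 7.64%). Of 8 B cell markers tested, 2 had negative log2 fold changes in Mx1-Cre cells (median 1.49) and 8 in Vav-Cre cells (median -1.48). Of 6 erythroid markers, 0 (median 0.40) and 5 (median -0.42) were negative. Of 5 T and NK cell markers, 3 (median -0.40) and 2 (median 0.08) were negative. Over all genes, 48.7% and 51.0% were negative. Summed erythroid markers spanned 61.7 to 76.1 CPM in Mx1-Cre, 18.0 to 25.1 in Vav-Cre and 42.5 to 61.6 in wild type libraries. The part of these other cells in the results was not tested, and fewer cells of a type and less RNA per cell cannot be told apart in bulk libraries.

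Promoter sequence is given first for members that the results turn on. RefSeq promoter windows on GRCm38.p6, spanning 250 bases before to 50 after the start, were found for 33 of the 43 members. The letters TTTCNNTTTC, searched on both strands as the core of the interferon-stimulated response element, occurred in 16 of these 33 genes (48.5%), against 3.99% of 27025 genes in the same table. The letters TTCNNNGAA, the palindromic core bound by STAT dimers, occurred in 8 of 33 members (24.2%), against 9.55% of all genes, and matches of both motifs were allowed to overlap. The 250 bases upstream of 6 members follow, written 5′ to 3′ in the direction of the gene, with both motifs in capitals. Ifit1 (chr19:34640639-34640888, plus strand), Gbp3 (chr3:142559794-142560043, plus), Oasl2 (chr5:114896684-114896933, plus) and Ifitm1 (chr7:140967826-140968075, plus) are shown because they passed the test in Mx1-Cre cells. Isg15 (chr4:156200819-156201068, minus) and Igtp (chr11:58199306-58199555, plus) are shown because each carries TTTCNNTTTC and did not pass.
Ifit1: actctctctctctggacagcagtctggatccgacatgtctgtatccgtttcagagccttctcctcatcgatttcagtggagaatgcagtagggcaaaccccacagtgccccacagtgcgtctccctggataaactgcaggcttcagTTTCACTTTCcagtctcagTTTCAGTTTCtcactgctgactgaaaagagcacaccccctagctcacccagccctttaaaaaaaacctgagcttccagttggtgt
Gbp3: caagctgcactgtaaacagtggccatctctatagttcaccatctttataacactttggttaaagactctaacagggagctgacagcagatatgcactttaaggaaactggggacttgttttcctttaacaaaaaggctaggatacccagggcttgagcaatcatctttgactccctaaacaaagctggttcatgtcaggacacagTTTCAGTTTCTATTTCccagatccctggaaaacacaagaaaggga
Oasl2: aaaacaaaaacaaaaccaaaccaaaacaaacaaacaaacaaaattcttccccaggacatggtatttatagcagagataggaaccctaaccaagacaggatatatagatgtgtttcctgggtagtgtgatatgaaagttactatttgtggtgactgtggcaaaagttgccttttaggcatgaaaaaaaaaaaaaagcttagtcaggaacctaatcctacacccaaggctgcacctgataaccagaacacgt
Ifitm1: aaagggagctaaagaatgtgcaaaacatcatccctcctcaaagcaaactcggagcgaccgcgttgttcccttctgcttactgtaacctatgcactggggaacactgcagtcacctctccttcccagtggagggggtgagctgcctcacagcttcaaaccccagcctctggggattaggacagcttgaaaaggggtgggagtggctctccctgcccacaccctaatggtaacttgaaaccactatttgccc
Isg15: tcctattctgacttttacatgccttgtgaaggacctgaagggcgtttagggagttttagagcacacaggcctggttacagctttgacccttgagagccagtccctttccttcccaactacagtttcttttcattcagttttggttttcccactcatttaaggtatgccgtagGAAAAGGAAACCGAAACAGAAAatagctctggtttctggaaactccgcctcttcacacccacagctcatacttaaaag
Igtp: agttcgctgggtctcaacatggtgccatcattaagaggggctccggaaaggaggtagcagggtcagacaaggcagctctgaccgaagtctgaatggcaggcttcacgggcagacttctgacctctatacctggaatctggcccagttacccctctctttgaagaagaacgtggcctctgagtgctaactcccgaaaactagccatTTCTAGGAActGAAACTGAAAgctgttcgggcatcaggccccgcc
Ifit1 held 2 matches to TTTCNNTTTC, Gbp3 held 2 that overlap, and Isg15 held a run of 3. Igtp, which encodes an immunity-related GTPase known to respond to interferon gamma, held 1 such match beside 1 match to TTCNNNGAA. No match lay in these stretches of Oasl2 and Ifitm1. Of the 16 members with TTTCNNTTTC, 2 passed the test in Mx1-Cre cells and 6 had all Mx1-Cre libraries below all wild type libraries. Of the 17 without it, 2 passed and 7 had all Mx1-Cre libraries below. Over all genes tested, 2.10% were called lower in Mx1-Cre cells and 14.8% had all Mx1-Cre libraries below.

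In stem cells with induced deletion of Huwe1, a subset of the interferon response genes was lower than in wild type. Between Mx1-Cre knockout and wild type cells, 4 of 43 members fell (Gbp3, Ifit1, Ifitm1 and Oasl2), 0 rose and 39 did not pass the test at an edgeR adjusted p under 0.05, the threshold used throughout. The 4 that fell are 9.30% of the members, where 2.10% of all 14086 genes tested were called lower, 0.390% higher and 2.49% in either direction. At an unadjusted edgeR p under 0.05, 15 members were lower (34.9%, against 10.5% of all genes) and 2 were higher (4.65%, against 6.17%). In 18 members (41.9%) every Mx1-Cre library lay below every wild type library, against 14.8% of all genes, and in 2 members (4.65%) every one lay above, against 10.9%. The log2 fold change was negative in 32 of 43 members (74.4%), against 48.7% of all genes, with a median of -0.28 over the members and 0.01 over all genes. The count of 4 depends on the tool and on single libraries: DESeq2 called 10 members lower (23.3%, against 5.23% of all genes), limma-voom called 16 lower (37.2%, against 8.01%) and 3 higher (6.98%, against 4.88%), and leaving out each library in turn gave 0 to 6 with edgeR. Both DESeq2 and limma-voom called Gbp3, Ifit1, Ifitm1, Oasl2, Ifit3, Mx2, Gbp6, Ifitm3, Rtp4 and Ifi44 lower. Only limma-voom called Irf7, Ifih1, Dhx58, Oas2, Rsad2 and Xaf1 lower, and Irf1, Ifi47 and Tap1 higher. The shares describe a list drawn up with earlier results in view. The count was 0 without wild type library 2 or Mx1-Cre library 3, 1 without wild type library 3 or Mx1-Cre library 1, and 2 without wild type library 1.

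The members were also counted library by library. Of the 43 members, 34, 29 and 37 lay below the wild type mean in Mx1-Cre libraries 1, 2 and 3, compared with 17 and 30 in Vav-Cre libraries 1 and 2 and 16, 18 and 28 in the wild type libraries that make up this mean. Mx1-Cre libraries 1 and 3 had more members below than Mx1-Cre library 2, and Vav-Cre library 2 had more than Vav-Cre library 1. The summed level of the members was 4071, 4049 and 3880 CPM in the Mx1-Cre libraries, 4660 and 4382 CPM in the Vav-Cre libraries and 4677, 4612 and 4328 CPM in wild type. The Mx1-Cre sums lay below the others, by a small margin to wild type library 3. A sum is weighted to genes at high levels, among them Ifitm1 and Ifitm3. These had 326 and 389 CPM in wild type library 3, against 98.6 to 117 and 163 to 267 CPM in the Mx1-Cre libraries. Without these genes, the sums of Mx1-Cre libraries 1 and 2 would not lie below that of wild type library 3.

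**Figure D1:**
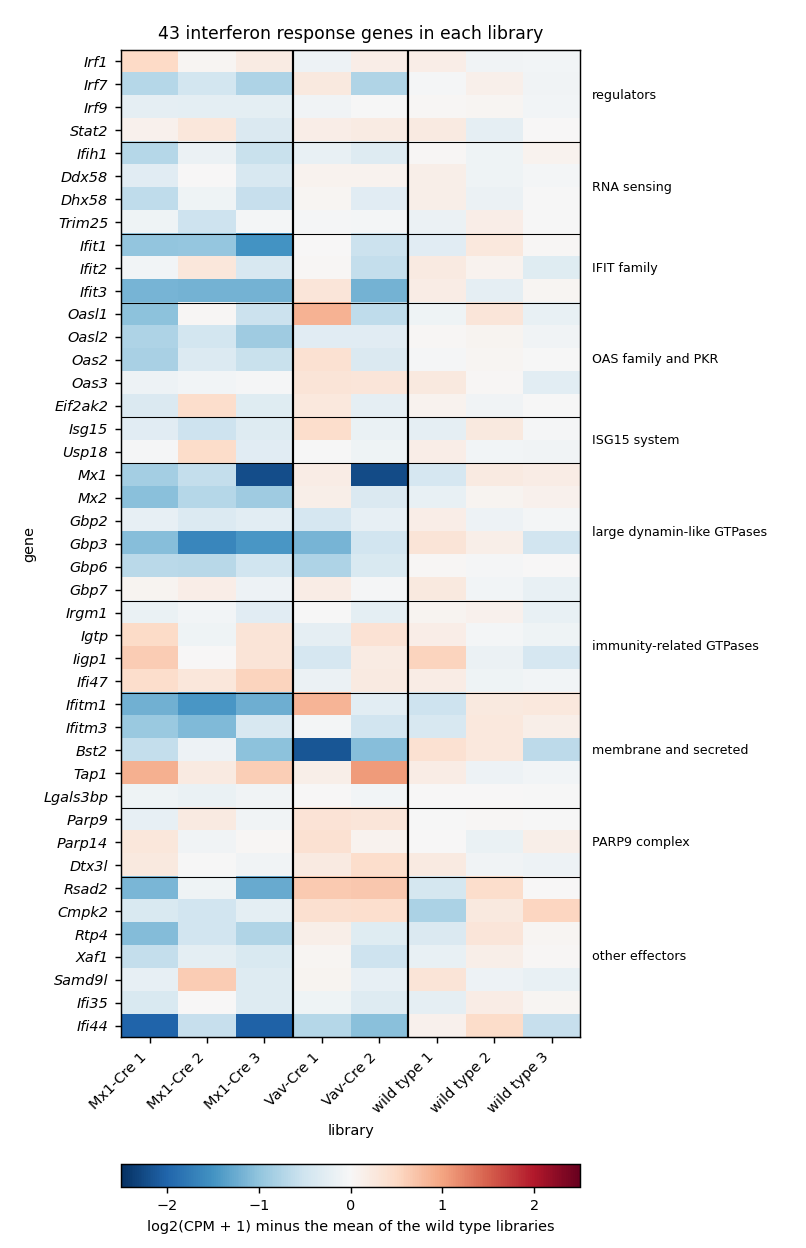
Each row is 1 of the 43 interferon response genes and each column 1 library; colour gives log2(CPM + 1) minus the mean of the wild type libraries, blue being lower and red higher. The 3 Mx1-Cre columns hold 34, 29 and 37 genes below the wild type mean, with Ifit1, Ifit3, Gbp3, Ifitm1 and Ifi44 among the darkest rows, while Tap1 and Ifi47 are red.

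Gbp3, a guanylate-binding protein gene whose family coats pathogen vacuoles, had the smallest p of the members. It stood at 48.0, 32.1 and 36.1 CPM in the Mx1-Cre libraries, 44.6 and 72.4 in the Vav-Cre libraries and 127, 112 and 73.0 in wild type. All 5 knockout libraries were below all 3 wild type libraries, with Vav-Cre library 2 just under the lowest of them. The mean of 38.7 ± 8.27 CPM in Mx1-Cre cells against 104 ± 28 CPM in wild type (SD, n = 3 each) gave a log2 fold change of -1.43 ± 0.25 (SE, edgeR adjusted p = 0.0201). Gbp3 was also the 1 member called in the mean of both knockout lines against wild type, at -1.13 ± 0.22 (edgeR adjusted p = 0.0280). In Vav-Cre cells alone the log2 fold change was -0.83 ± 0.29 (edgeR adjusted p = 0.233). The Mx1-Cre call was lost without wild type library 1 (edgeR adjusted p = 0.0694), wild type library 2 (0.0941) or Mx1-Cre library 3 (0.0668), and the call for both lines without any 1 of the wild type libraries (0.118, 0.141 and 0.0546) or Vav-Cre library 1 (0.0573).

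The IFIT genes encode proteins that bind foreign RNA. Ifit1, which recognises RNA caps lacking the host methylation, had 15.9, 16.3 and 11 CPM in the Mx1-Cre libraries, 33.1 and 22.3 in the Vav-Cre libraries and 26.5, 39.5 and 33.2 in wild type. The Mx1-Cre libraries were below all others, while Vav-Cre and wild type overlapped. Its log2 fold change was -1.20 ± 0.24 in Mx1-Cre cells (SE, edgeR adjusted p = 0.0299) and -0.26 ± 0.26 in Vav-Cre cells (edgeR adjusted p = 0.749). The direct difference between the lines, Mx1-Cre minus Vav-Cre, was -0.94 ± 0.26 and did not pass (edgeR adjusted p = 0.185). Without wild type library 2 or 3, or Mx1-Cre library 1 or 3, the Mx1-Cre call was lost at edgeR adjusted p of 0.141, 0.111, 0.0894 and 0.0804. Ifit3 was low, with 44, 37 and 38 counts in the Mx1-Cre libraries, 157 and 43 in the Vav-Cre libraries and 151, 108 and 143 in wild type. Here Vav-Cre library 2 sat with the Mx1-Cre libraries and Vav-Cre library 1 with wild type. The log2 fold change of Ifit3 in Mx1-Cre cells was -1.68 ± 0.50 (edgeR adjusted p = 0.113). Of its 50-base words, 51.2% also occur in the near-copy Ifit3b, which is absent from the count table. How reads from the shared part were counted is not known. Ifit2 overlapped between all groups, with -0.05 ± 0.23 in Mx1-Cre cells (edgeR adjusted p = 0.936).

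The genes of the OAS family and PKR encode proteins that bind viral RNA, and several OAS proteins make a messenger that activates RNA degradation. In Mx1-Cre cells 1 of these 5 genes fell, where 2.10% of all genes were called lower. Oasl2 had 76.1, 94.9 and 70.5 CPM in the Mx1-Cre libraries, 108 and 107 in the Vav-Cre libraries and 134, 136 and 122 in wild type. The 3 groups did not overlap, with the Vav-Cre libraries in between. The log2 fold change was -0.70 ± 0.14 in Mx1-Cre cells (SE, edgeR adjusted p = 0.0286) and -0.29 ± 0.15 in Vav-Cre cells (edgeR adjusted p = 0.461). The Mx1-Cre call was lost without any 1 wild type library (edgeR adjusted p of 0.0887, 0.138 and 0.0860), Mx1-Cre library 1 (0.116) or Mx1-Cre library 3 (0.0810). Oas2 had all Mx1-Cre libraries (14.5 to 20.5 CPM) below all wild type libraries (25.8 to 27.0 CPM), without passing (edgeR adjusted p = 0.226). Oas3, Oasl1 and Eif2ak2, which encodes the RNA-activated kinase PKR, overlapped between Mx1-Cre and wild type.

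Ifitm1 and Ifitm3 encode membrane proteins that restrict viral entry. Ifitm1 had 117, 98.6 and 115 CPM in the Mx1-Cre libraries, 489 and 224 in the Vav-Cre libraries and 189, 323 and 326 in wild type. The Mx1-Cre libraries were tightly grouped and below every other library, while the Vav-Cre libraries stood at both sides of the wild type median. The log2 fold change was -1.34 ± 0.28 in Mx1-Cre cells (SE, edgeR adjusted p = 0.0387) and 0.35 ± 0.31 in Vav-Cre cells (edgeR adjusted p = 0.693). Of all members Ifitm1 differed most between the lines, at -1.69 ± 0.31 for Mx1-Cre minus Vav-Cre with a 95% interval of -2.37 to -1.01, and did not pass over all genes (edgeR adjusted p = 0.0691). Its Mx1-Cre call was lost without wild type library 2 or 3 (edgeR adjusted p of 0.152 and 0.146) or any 1 Mx1-Cre library (0.115, 0.0762 and 0.0888). Ifitm3 had 184, 163 and 267 CPM in the Mx1-Cre libraries, 340 and 252 in the Vav-Cre libraries and 267, 420 and 389 in wild type, a log2 fold change of -0.81 ± 0.23 in Mx1-Cre cells (edgeR adjusted p = 0.0982). Bst2, which tethers budding virions, was low in the Vav-Cre libraries at 1.61 and 4.46 CPM, against 14.0, 12.8 and 6.25 CPM in wild type, with a log2 fold change of -1.85 ± 0.53 (edgeR adjusted p = 0.157). Tap1, the peptide transporter for MHC class I loading, went the other way, with 235, 147 and 193 CPM in the Mx1-Cre libraries, 139 and 265 in the Vav-Cre libraries and 143, 116 and 121 in wild type. All Mx1-Cre libraries were above wild type for Tap1, at a log2 fold change of 0.60 ± 0.24 that did not pass (edgeR adjusted p = 0.239). With limma-voom, which called 4.88% of all genes higher, Tap1 was called higher in Mx1-Cre cells.

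**Figure D2:**
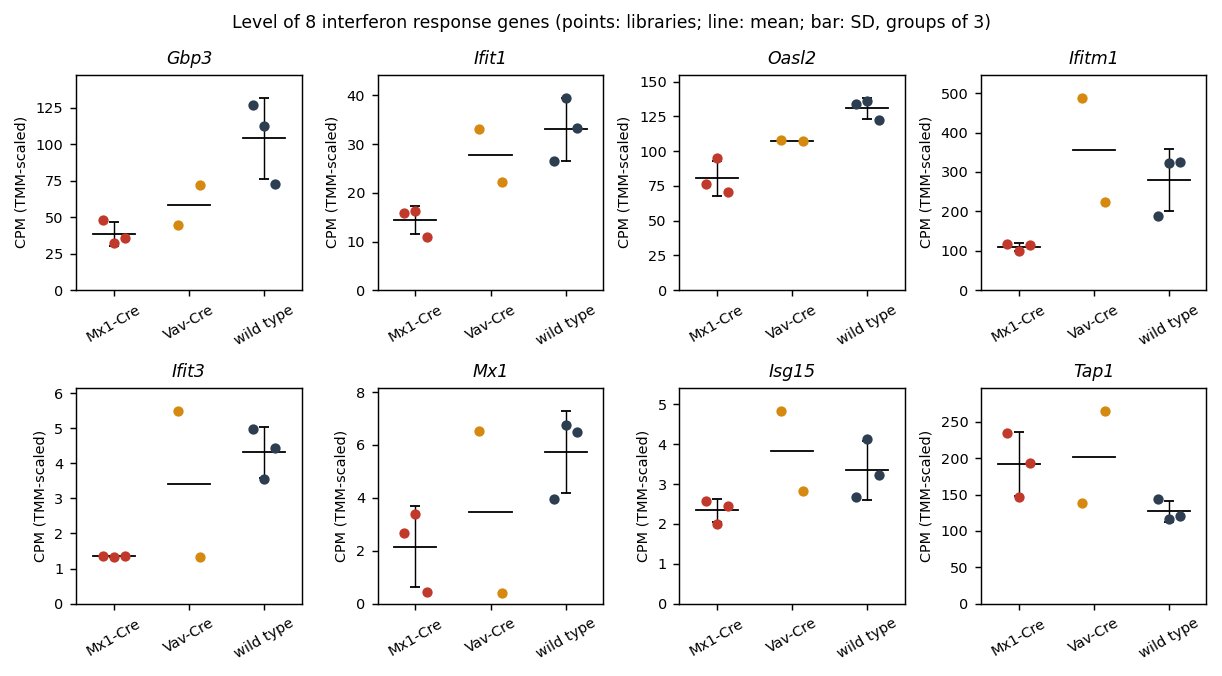
TMM-scaled CPM of 8 members by group; points are libraries, lines are group means and bars are SD in the groups of 3. The Mx1-Cre points lie below all wild type points for Gbp3, Ifit1, Oasl2, Ifitm1, Ifit3, Mx1 and Isg15 and above them for Tap1, and the 2 Vav-Cre points are far apart for Ifitm1, Ifit3 and Mx1.

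None of the 4 regulators passed the edgeR test in any comparison, with 1 lower at an unadjusted p under 0.05 in Mx1-Cre cells, against 10.5% of all genes. DESeq2 called none of them, and limma-voom, which called 8.01% of all genes lower and 4.88% higher, called Irf7 lower and Irf1 higher in Mx1-Cre cells. Irf7, the factor that amplifies interferon production, had 20.9, 25.2 and 20.2 CPM in the Mx1-Cre libraries, 41.8 and 20.5 in the Vav-Cre libraries and 34.4, 38.2 and 32.7 in wild type. Mx1-Cre and wild type did not overlap, but the log2 fold change of -0.67 ± 0.24 did not pass (SE, edgeR adjusted p = 0.198). Irf9, the DNA-binding subunit of the type I complex, was at 139 CPM in each of the Mx1-Cre libraries, 154 and 164 in the Vav-Cre libraries and 167, 169 and 156 in wild type, a log2 fold change of -0.24 ± 0.11 in Mx1-Cre cells (edgeR adjusted p = 0.314). Stat2, its partner, overlapped throughout, with 61.4, 69.8 and 44.2 CPM in the Mx1-Cre libraries, 64.6 and 65.8 in the Vav-Cre libraries and 66.6, 48.9 and 57.3 in wild type. Irf1, which drives interferon gamma targets, was at 154 to 213 CPM in Mx1-Cre, 138 and 168 in Vav-Cre and 140 to 168 in wild type libraries.

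Among the RNA sensing genes, Ifih1, the sensor of long double-stranded RNA known as MDA5, had 66.3, 97.7 and 73.9 CPM in the Mx1-Cre libraries, 95.7 and 86.7 in the Vav-Cre libraries and 111, 101 and 116 in wild type. All knockout libraries lay below wild type, with a log2 fold change of -0.46 ± 0.16 in Mx1-Cre cells that did not pass (SE, edgeR adjusted p = 0.170). Ddx58, which encodes the sensor RIG-I, Dhx58 and Trim25, the ligase that activates RIG-I, overlapped between Mx1-Cre and wild type, with log2 fold changes of -0.22, -0.44 and -0.22. Of the ISG15 system, Isg15, the ubiquitin-like modifier, had 2.56, 2.00 and 2.45 CPM in the Mx1-Cre libraries, 4.83 and 2.82 in the Vav-Cre libraries and 2.67, 4.14 and 3.24 in wild type. Its Mx1-Cre libraries lay below wild type by a small margin, at a log2 fold change of -0.52 ± 0.37 that did not pass (edgeR adjusted p = 0.533). Usp18, which removes ISG15 and dampens the receptor, overlapped throughout, with 58.5, 82.6 and 49.3 CPM in the Mx1-Cre libraries, 59.9 and 55.5 in the Vav-Cre libraries and 67.0, 57.0 and 56.5 in wild type.

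The large dynamin-like GTPases included Mx1, the gene whose promoter drives the Cre of the inducible line. Mx1 had 86, 93 and 12 counts in the Mx1-Cre libraries, 186 and 13 in the Vav-Cre libraries and 120, 206 and 209 in wild type. These were 2.66, 3.37 and 0.426 CPM in the Mx1-Cre libraries, 6.52 and 0.403 CPM in the Vav-Cre libraries and 3.96, 6.76 and 6.50 CPM in wild type. The Mx1-Cre libraries were below wild type but spread from 0.426 to 3.37 CPM among themselves, and the log2 fold change of -1.41 ± 0.86 did not pass (SE, edgeR adjusted p = 0.459). Its relative Mx2 had 2.19 to 3.01 CPM in Mx1-Cre and 4.82 to 6.16 CPM in wild type libraries, at -1.12 ± 0.31 (edgeR adjusted p = 0.0966). Gbp2 and Gbp6 also had every Mx1-Cre library below wild type without passing, while Gbp7 overlapped throughout at 378 to 463, 404 to 469 and 365 to 493 CPM in Mx1-Cre, Vav-Cre and wild type libraries.

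The immunity-related GTPases, effectors known mostly as interferon gamma targets in mice, did not pass the test in either line. Their median log2 fold change in Mx1-Cre cells was 0.27, with 3 of 4 positive, and in Vav-Cre cells -0.03, with 2 positive and 2 negative. Beside 6.17% of all genes higher and 10.5% lower at an unadjusted edgeR p under 0.05 in Mx1-Cre cells, these 4 gave 1 and 0. Ifi47 had 368, 331 and 402 CPM in the Mx1-Cre libraries, 247 and 320 in the Vav-Cre libraries and 308, 253 and 259 in wild type. Every Mx1-Cre library was above every other library for Ifi47, at a log2 fold change of 0.43 ± 0.15 (SE, edgeR adjusted p = 0.169). With limma-voom, which called 4.88% of all genes higher, Ifi47 was called higher in Mx1-Cre cells. Igtp, Irgm1 and Iigp1 overlapped between all groups. The genes grouped here under the PARP9 complex, Parp9, Parp14 and Dtx3l, had log2 fold changes of -0.01, 0.08 and 0.04 in Mx1-Cre cells and 0.33, 0.25 and 0.33 in Vav-Cre cells. None passed, and Parp9 and Dtx3l overlap on opposite strands, so unstranded reads of the overlap cannot be assigned.

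Of the other effectors, 6 of 7 had negative log2 fold changes in Mx1-Cre cells (85.7%, against 48.7% of all genes) and 0 passed the edgeR test, where 2.10% of all genes were called lower. DESeq2 called Rtp4 and Ifi44 lower, and limma-voom called these with Rsad2 and Xaf1, where they called 5.23% and 8.01% of all genes lower. Ifi44 had 21.4, 58.6 and 21.0 CPM in the Mx1-Cre libraries, 53.8 and 42.6 in the Vav-Cre libraries and 95.6, 122 and 58.9 in wild type. All 5 knockout libraries were below wild type, Mx1-Cre library 2 narrowly, at -1.45 ± 0.40 in Mx1-Cre cells (SE, edgeR adjusted p = 0.0912). Rsad2, encoding the antiviral enzyme viperin, and its chromosomal neighbour Cmpk2 were lower in every Mx1-Cre library than in both Vav-Cre libraries. Rsad2 had 9.91, 21.5 and 9.12 CPM in the Mx1-Cre libraries, 36.8 and 37.6 in the Vav-Cre libraries and 16.8, 31.7 and 23.2 in wild type. Cmpk2 had 14.9, 13.9 and 16.5 CPM in the Mx1-Cre libraries, 26.6 and 26.9 in the Vav-Cre libraries and 11, 23.8 and 29.4 in wild type. Both genes overlapped between the knockout lines and wild type, except that Rsad2 was higher in both Vav-Cre libraries than in wild type. The Mx1-Cre minus Vav-Cre log2 differences were -1.46 ± 0.37 for Rsad2 (edgeR adjusted p = 0.168) and -0.82 ± 0.33 for Cmpk2 (edgeR adjusted p = 0.330). Rtp4 had all Mx1-Cre libraries (32.5 to 49.5 CPM) below wild type (54.3 to 86.4 CPM) at -0.79 ± 0.22 (edgeR adjusted p = 0.0961), and Xaf1 likewise at -0.42 ± 0.20 (edgeR adjusted p = 0.320).

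**Figure D3:**
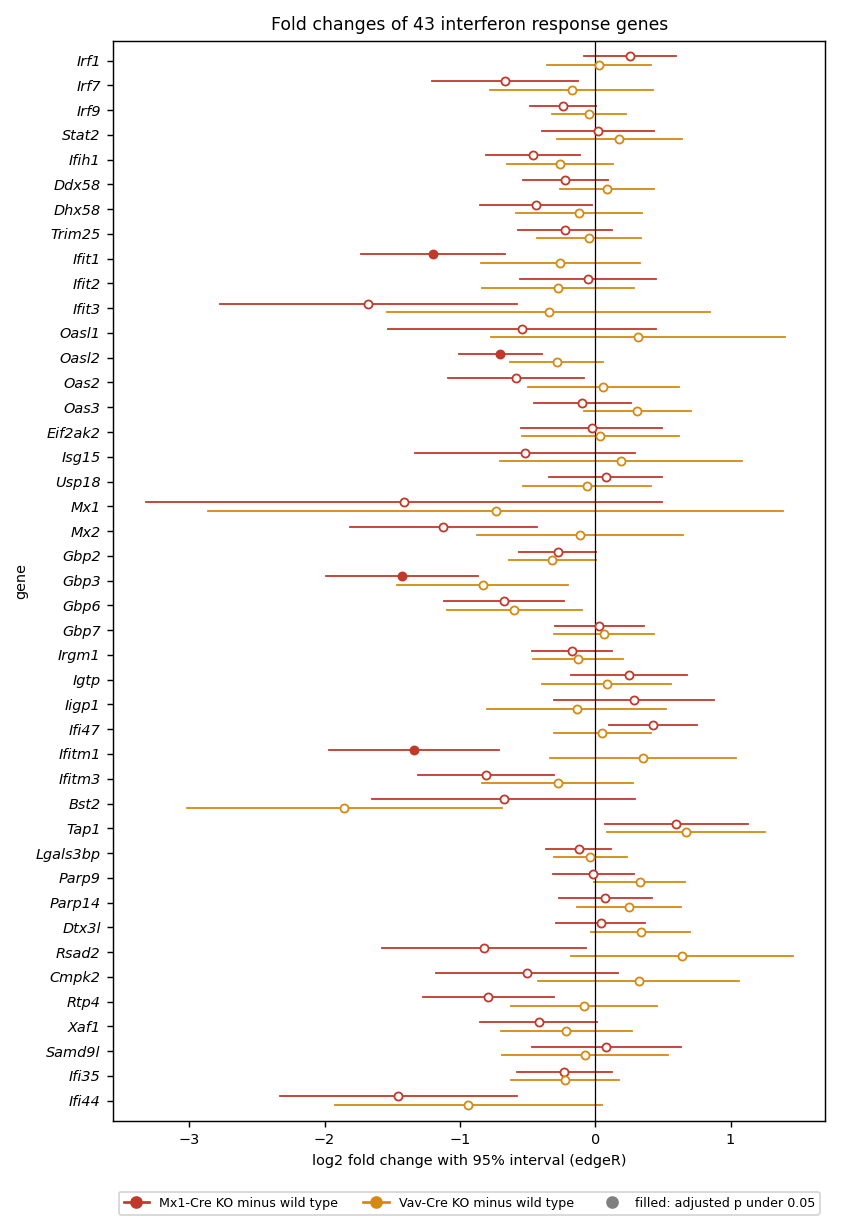
Log2 fold changes against wild type of the 43 members with 95% intervals from edgeR, Mx1-Cre in red and Vav-Cre in orange; filled points passed an adjusted p under 0.05. The 4 filled points, Ifit1, Oasl2, Gbp3 and Ifitm1, are Mx1-Cre points left of 0.

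In the constitutive Vav-Cre knockout, 0 of 43 members passed the edgeR test against wild type, where 0.192% of all genes were called higher, 0.319% lower and 0.511% in either direction. At an unadjusted edgeR p under 0.05, 3 members were lower (6.98%, against 7.64% of all genes) and 1 was higher (against 5.76% of all genes), and DESeq2 called 1 member lower (Bst2, or 2.33%, against 2.58% of all genes). The 2 Vav-Cre libraries did not overlap wild type in 7 members below (16.3%, against 17.1% of all genes) and 4 above (9.30%, against 15.6%). These shares lie near or under those of all genes. The log2 fold change was negative in 25 members (58.1%, against 51.0% of all genes), and its median was -0.06 over the members and -0.01 over all genes. It was -0.25 without Vav-Cre library 1 and 0.05 without Vav-Cre library 2, so the sign of the median rests on a single library.

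The direct comparison of the lines, Mx1-Cre minus Vav-Cre, also called 0 of 43 members with edgeR, against 0.0568% of all genes higher and 0.114% lower. Below that threshold the members leaned lower in Mx1-Cre cells: 11 had an unadjusted edgeR p under 0.05 (25.6%, against 7.31% of all genes) and 2 were higher (4.65%, against 5.96%). Libraries of the lines did not overlap in 14 members lower in Mx1-Cre (32.6%, against 13.8%) and 2 higher (4.65%, against 12.0%). DESeq2 called 3 members lower in Mx1-Cre cells (Ifit1, Ifitm1 and Rsad2), or 6.98%, against 1.74% of all genes. The mean of both lines against wild type called 1 member, Gbp3 (2.33%, against 2.10% of all genes called lower, 0.547% higher and 2.65% in either direction). At an unadjusted edgeR p under 0.05, 12 members were lower in that mean (27.9%, against 10.4% of all genes) and 1 was higher (against 6.11%), and 6 members had all 5 knockout libraries below all wild type libraries (14.0%, against 7.28%), with 0 above (4.41% of all genes). The comparisons share libraries, so they do not back each other.

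**Figure D4:**
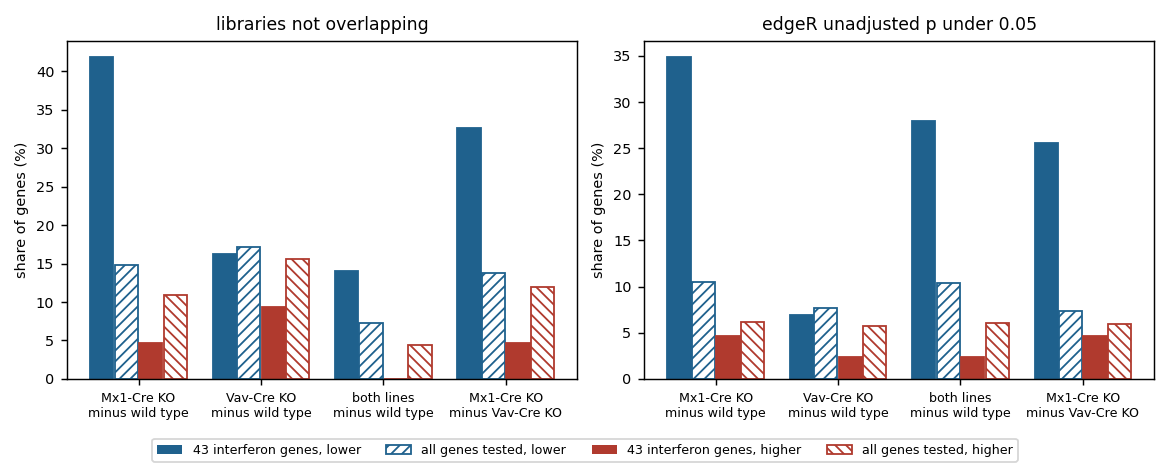
Share (%) of the 43 members (filled bars) and of all genes tested (hatched bars) that were lower (blue) or higher (red) in each comparison, by libraries that did not overlap (left) and by an unadjusted edgeR p under 0.05 (right). For Mx1-Cre against wild type 41.9% of members lay below without overlap, compared with 14.8% of all genes, while the Vav-Cre shares are 16.3% and 17.1%.

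Other genes of the pathway, chosen by name, were split between lower and higher. Of 97 further interferon-induced genes 93 were tested, and in Mx1-Cre against wild type 4 fell, 2 rose and 87 did not pass the edgeR test, with 46 positive and 47 negative log2 fold changes and a median of -0.00. The 4 that fell are 4.30% of these genes, against 2.10% of all genes called lower and 0.390% called higher. At an unadjusted edgeR p under 0.05, 14 were lower (15.1%, against 10.5% of all genes) and 10 of 93 higher (against 6.17% of all genes). Every Mx1-Cre library lay below every wild type library in 19 (20.4%, against 14.8%) and above in 11 (11.8%, against 10.9%). The 4 that fell, Gbp8, Gbp9, Gbp4 and Gbp10, are guanylate-binding protein genes that follow one another in the RefSeq gene order on chromosome 5, next to the member Gbp6. Gbp8 had 13.2, 8.27 and 9.48 CPM in the Mx1-Cre libraries, 14.3 and 19.5 in the Vav-Cre libraries and 31.1, 33.3 and 31.0 in wild type. All knockout libraries were at most 19.5 CPM and the wild type libraries at least 31.0 CPM. Its log2 fold change of -1.62 ± 0.22 in Mx1-Cre cells (SE, edgeR adjusted p = 0.00767) was called under all 17 alternatives, including each library left out. Gbp4 was at -1.39 ± 0.25 (edgeR adjusted p = 0.0195), Gbp9 at -2.11 ± 0.37 (edgeR adjusted p = 0.0181) and Gbp10 at -1.83 ± 0.38 (edgeR adjusted p = 0.0368), and each of these was lost on leaving out single libraries, at edgeR adjusted p of up to 0.0901, 0.0839 and 0.181. The member Gbp6 had 10.3, 10.2 and 11.8 CPM in the Mx1-Cre libraries, 9.67 and 13 in the Vav-Cre libraries and 17.6, 16.7 and 17.2 in wild type, at -0.67 ± 0.20 in Mx1-Cre cells without passing (edgeR adjusted p = 0.116). In Vav-Cre cells the log2 fold changes were -0.91, -0.92, -1.19, -1.64 and -0.60 for Gbp8, Gbp9, Gbp4, Gbp10 and Gbp6, none of them called by edgeR, while DESeq2 called Gbp8, Gbp4 and Gbp10. Gbp10 shares 82.5% and Gbp6 59.7% of their 50-base words with other transcripts, Gbp8 18.2%, Gbp4 12.8% and Gbp9 8.31%, so reads may be split among these genes and values of Gbp10 and Gbp6 are uncertain. Among the members outside this cluster, Rtp4 shares 13.6%, Gbp7 12.8% and Igtp 12.3%.

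**Figure D5:**
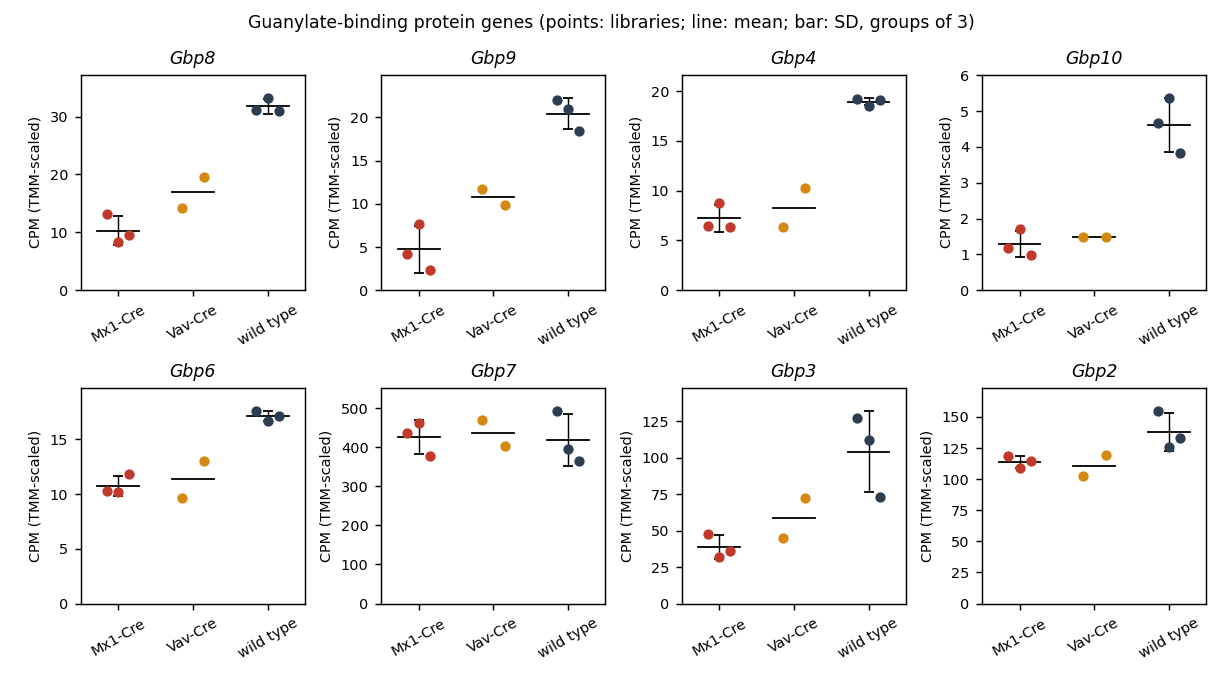
TMM-scaled CPM of 8 guanylate-binding protein genes; points are libraries, lines are group means and bars are SD in the groups of 3. For Gbp8, Gbp9, Gbp4, Gbp10, Gbp6, Gbp3 and Gbp2 every knockout point lies below every wild type point, while the groups overlap for Gbp7.

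The 2 genes that rose in Mx1-Cre cells were Lgals9, a secreted lectin gene, with 899, 811 and 975 CPM in the Mx1-Cre libraries, 744 and 704 in the Vav-Cre libraries and 579, 655 and 610 in wild type (log2 fold change 0.54 ± 0.12, edgeR adjusted p = 0.0430), and Mlkl. Mlkl, the executor of necroptosis, had 94.6, 95 and 101 CPM in the Mx1-Cre libraries, 68.4 and 73.1 in the Vav-Cre libraries and 70.1, 62.2 and 45.8 in wild type (0.71 ± 0.16, edgeR adjusted p = 0.04997). The calls of Lgals9 and Mlkl were not repeated under the alternatives, nor with libraries left out.

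Upstream, the interferon genes themselves were at or near 0. Of 23 listed, 19 were in the table and 1 (Ifnk) had enough counts to test, and their summed level was 0.401, 0.326 and 0.390 CPM in the Mx1-Cre libraries, 0.841 and 1.15 in the Vav-Cre libraries and 1.02, 0.328 and 0.684 in wild type. Of 12 receptor and JAK-STAT genes, 10 were tested and 1 rose, in the Vav-Cre libraries, where 0.192% of all genes were called higher. This was Ifnar1, a subunit of the type I receptor, with 129, 119 and 103 CPM in the Mx1-Cre libraries, 160 and 163 in the Vav-Cre libraries and 97.7, 91.2 and 96.4 in wild type. All knockout libraries were above wild type, the Vav-Cre libraries highest, with log2 fold changes of 0.30 ± 0.12 in Mx1-Cre (SE, edgeR adjusted p = 0.255), 0.76 ± 0.14 in Vav-Cre (edgeR adjusted p = 0.0432) and 0.53 ± 0.11 for the mean of both lines (edgeR adjusted p = 0.0368). The Vav-Cre call was lost without any 1 of 6 libraries, Mx1-Cre libraries 2 and 3 being the others, at edgeR adjusted p between 0.0622 and 0.230, and the call for both lines at up to 0.212. The partner receptor gene Ifnar2 overlapped between the groups, with 75.8, 55.6 and 77.3 CPM in the Mx1-Cre libraries, 60.5 and 98.2 in the Vav-Cre libraries and 62.7, 68.7 and 58.8 in wild type. None of 17 tested genes that induce interferon and none of 14 negative regulators was called by edgeR in any comparison, where at an unadjusted p under 0.05 in Mx1-Cre cells 3 and 1 of them were lower and 1 and 0 higher, against 10.5% and 6.17% of all genes.

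Ly6a encodes Sca-1, an interferon-inducible surface protein that is also part of the sorting gate. It had 45.1, 42.4 and 60.7 CPM in the Mx1-Cre libraries, 50.6 and 144 in the Vav-Cre libraries and 75.5, 96 and 77.3 in wild type. The Mx1-Cre libraries were below wild type, at a log2 fold change of -0.75 ± 0.32 (SE, edgeR adjusted p = 0.268) that passed with limma-voom (adjusted p = 0.0371). A gate on the protein limits what its RNA level can show.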

How the data were processed

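cDNA synthesis used a SMARTer Ultra Low Input kit and library preparation NEBNext reagents, both unstranded, per the labels. The processing notes of the submitters name TopHat, SAMtools, HTSeq, edgeR and build mm9; the annotation and tool versions were not given in the sources used here. Raw counts by gene symbol, as deposited, entered every test. The other deposited table holds CPM, the counts divided by library totals, for 12457 genes reaching 1 CPM in 3 or more libraries, and served to check the counts.

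After filterByExpr (minimum count 10, minimum total 15), 14086 of 23358 genes were scaled by TMM and fitted in edgeR 4.0.16 (R 4.3.3) over all 8 libraries, group being the only term, and quasi-likelihood F tests were taken. P-values were adjusted by Benjamini-Hochberg across the tested genes. Each SE was derived from F, and 95% intervals use the t distribution at the fit's degrees of freedom. Depth was 28689765 to 33202926 counts, without molecular identifiers.

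Members and lists were chosen with earlier results of these data known. Members given for every library are those called in any comparison, Irf7, Irf9, Stat2, Isg15, Usp18, Ifih1 and Mx1 for their roles, and others, such as Ifit3, Ifi44, Rsad2, Cmpk2, Ifi47, Bst2, Tap1, Ifitm3 and Gbp6, singled out after their values were seen. Of the other lists, up to 4 called genes a list were named, plus Ifnar1, Ifnar2 and Ly6a for their roles; some genes this rule covers are not reported here; Lgals9 and Mlkl were added after their values were seen. Alternatives were DESeq2 1.42.0, limma-voom 3.58.1 with sample quality weights, 3 other scalings, 2 other filters, a replicate block, the compared groups alone, and each library left out. Shared sequence was counted as 50-base words in GENCODE M21 transcripts. Gene order and promoters come from RefSeq on GRCm38, and no coordinate was converted from mm9.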

Additional observations from a re-analysis of the deposited data

Results flagged for a closer look

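Among the named genes outside the interferon group, Slamf1 and Fgd5 differed between the knockout lines by the edgeR test of Mx1-Cre minus Vav-Cre. Slamf1, which encodes the CD150 of the sorting gate, differed by -0.987 (edgeR adjusted p = 0.0346). Fgd5, a stem cell marker, differed by -2.43 (edgeR adjusted p = 0.0183). With only the compared groups fitted, both calls were lost (edgeR adjusted p of 0.166 for Slamf1 and 0.152 for Fgd5). Against wild type, Fgd5 was called lower in Mx1-Cre and in Vav-Cre cells (edgeR adjusted p of 0.000264 and 0.0376). Slamf1 was lower in Mx1-Cre and higher in Vav-Cre cells without passing (edgeR adjusted p of 0.254 and 0.0632). Their CPM were 49.0, 53.6 and 58.1 in the Mx1-Cre libraries against 105 and 108 in the Vav-Cre libraries for Slamf1, and 3.24, 4.06 and 1.70 against 17.2 and 15.2 for Fgd5. Leaving out each library in turn, the call held in 1 of 8 cases for Slamf1 and 5 for Fgd5. None of the 43 interferon response genes passed this edgeR test; at an unadjusted p under 0.05, 11 were lower (25.6%, against 7.31% of all genes) and 2 higher (4.65%, against 5.96%), and DESeq2 called 3 lower (6.98%, against 1.74%).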

How the results depend on the processing

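Among 25 called values of named genes and 417 repeats under the alternatives, 306 stayed called, 111 lost the call and 0 changed sign; among 71 values not called, 35 of 1191 repeats passed. Counts of called interferon response genes moved more. For Mx1-Cre against wild type, the 4 became 10 by DESeq2, 19 by limma-voom, and 0 to 6 with each library left out, 0 without wild type library 2 or Mx1-Cre library 3. For Vav-Cre against wild type, the 0 became 1 by DESeq2 and stayed 0 with each library left out. For the mean of both lines, the 1 became 6 by DESeq2, 7 by limma-voom, 2 with library totals only, 2 without the filter, and 0 to 3 with each library left out. For Mx1-Cre minus Vav-Cre, the 0 became 3 by DESeq2, 1 without the filter, and 0 to 1 with each library left out. Over all genes, the 351 calls for Mx1-Cre became 1042 by DESeq2, 1815 by limma-voom, 575 with only those groups and 58 to 565 with each library left out. The 72 for Vav-Cre became 593 by DESeq2, 174 without the filter, 111 with only those groups and 5 to 196. The 373 for both lines became 953 by DESeq2, 992 by limma-voom and 22 to 502. The 24 for Mx1-Cre minus Vav-Cre became 462 by DESeq2, 10 by limma-voom, 81 without the filter, 3 with only those groups and 3 to 412. The cause was not tested.

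Deviations from group means of same-numbered Mx1-Cre and wild type libraries had r of -0.00845, -0.0810 and 0.271. Differently numbered libraries of these groups ran from -0.359 to 0.344. With so few libraries a group, such values can neither show nor exclude pairing. The labels state no pairing, so replicate numbers were not taken as pairs. With the replicate block, 3 interferon response genes were called for Mx1-Cre (Oasl2, Gbp3 and Ifi44), 0 for Vav-Cre, 2 for both lines and 0 for Mx1-Cre minus Vav-Cre; over all genes the block gave 20 calls for Vav-Cre, 218 for both lines and 9 between the lines. Mx1, Isg15 and Ifit3 stood at a few CPM. For Mx1 the spread between libraries was also wide, at 86, 93 and 12 counts in Mx1-Cre libraries of similar depth.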

Other observations

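Both genes given here were chosen after their values were seen. Psmb9, a catalytic subunit of the immunoproteasome induced by interferon gamma, had 177, 141 and 194 CPM in the Mx1-Cre libraries, 144 and 167 in the Vav-Cre libraries and 107, 136 and 118 in wild type. All 5 knockout libraries were above the wild type libraries, without passing the edgeR test for Mx1-Cre (log2 fold change 0.50 ± 0.15, adjusted p = 0.126). Ly6c1, a surface protein gene at the floor of detection, had 0.185, 0.109 and 0.177 CPM in the Mx1-Cre libraries, 0.210 and 0.155 in the Vav-Cre libraries and 0.990, 1.25 and 1.28 in wild type. It was called lower by edgeR in the mean of both lines against wild type (adjusted p = 0.0411), and this call was not repeated under the alternatives.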
